A study of Arabidopsis thaliana with 9 samples.

Results

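The UDP-glycosyltransferases described here are 136 protein-coding genes of Arabidopsis thaliana among the 38299 genes of the deposited count table. A gene was taken where its name began with UGT and a number or where its description named a UDP-glucosyl transferase or a UDP-glycosyltransferase, and UGT74B1 and UGT74C1, the S-glucosyltransferases of glucosinolate synthesis, were left out of the 138 genes found. The name gave 57 members and the description alone gave 79. By their names, 116 members belong to 20 numbered UGT families, 19 are other glycosyltransferases whose descriptions carry the superfamily's name, and 1 is the clock transcription factor BOA, whose description also carries the name of its overlapping neighbour UGT76E1.

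Sepals of gir1-1 mutants, of atml1-3 mutants and of Col-0 wild type (WT) were sequenced as 3 libraries per genotype, all 3 genotypes grown at 23 °C in continuous light and all libraries labelled with 1 batch. Each library held 200 sepals dissected from 50 unopened buds at floral stage 12, so many plants were pooled, and nothing in the labels says whether the 3 libraries of a genotype came from separate cultivations; p-values therefore measure the spread between these libraries. ATML1 is a homeodomain factor of the epidermis, and the study's title places it with GIR1 and the co-repressor TPL in 1 repression module.

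UGTs move a sugar, most often glucose, from a UDP-sugar donor to small molecules such as hormones, flavonoids, hydroxycinnamates and foreign compounds, which generally makes them more soluble and fit for storage or transport. Plant members share a C-terminal signature, the PSPG box, that lines the donor site, while the variable N-terminal part largely sets the acceptor. Many lie in the genome as tandem arrays of close copies, and family numbers and letters group them by sequence.

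The count totals were 15328056 to 20148807 per library, so that 3 counts, taken as the floor of detection, were at most 0.189 CPM (read counts scaled to the library size by edgeR, as its cpm function gives them), which covers counting error only. The 5 sepal and flower markers (AP1, AP2, SEP1, SEP2 and SEP3) were all counted and summed to 774 to 874 CPM in gir1-1, 749 to 945 CPM in atml1-3 and 714 to 942 CPM in WT. Of the 3 anther markers, A9 and MS2 had no count in any library and AMS stayed at or below 0.687 CPM. Of the epidermal markers besides ATML1, PDF2 was at 31.4 to 56.7 CPM over all libraries and PDF1 at or below 0.835 CPM. The petal and stamen marker AP3 was at 28.1 to 46.0 CPM in gir1-1, 47.4 to 65.9 CPM in atml1-3 and 21.3 to 47.6 CPM in WT. The carpel and ovule marker SHP1 was at 4.36 to 5.67 CPM in gir1-1, 4.39 to 8.62 CPM in atml1-3 and 2.79 to 4.35 CPM in WT, with both mutants above WT and adjusted p of 0.80 and 0.38 by edgeR's quasi-likelihood test. SHP2, of the same list, was at 0.0982 to 0.549 CPM in gir1-1. It was at 0.252 to 1.25 CPM in atml1-3 and 0 to 1.03 CPM in WT, so the genotypes overlapped. STK, also of that list, had counts in gir1-1 only, at or below 0.2455 CPM. The nectary markers CRC, SWEET9 and CWINV4 summed to 0 to 0.344 CPM in gir1-1, against 1.82 to 6.21 CPM in atml1-3 and 1.76 to 12.8 CPM in WT; the part of other cell types in the values below was not tested. ATML1 itself was counted at 15.96 to 24.0 CPM in gir1-1, 7.80 to 16.6 CPM in atml1-3 and 29.9 to 51.2 CPM in WT.

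The PSPG box was found in 101 of the 116 named UGTs and in none of the 19 other glycosyltransferases or in BOA. It spans 44 residues, coded by 132 bases, and ended in glutamine, the residue usual in glucosyltransferases, in 96 of the 101. The coding DNA of the box is shown for the 5 genes of the UGT85A tandem array. Their levels are described gene by gene below, and reads must tell these copies apart. Sequences are from RefSeq TAIR10.1, 5′ to 3′ on the coding minus strand of chromosome 1, in genome order of the genes, with capitals marking bases that differ from UGT85A1.
UGT85A7 (chr1:7890710-7890841): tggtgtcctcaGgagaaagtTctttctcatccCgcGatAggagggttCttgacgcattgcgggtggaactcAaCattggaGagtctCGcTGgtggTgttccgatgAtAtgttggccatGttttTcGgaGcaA
UGT85A2 (chr1:7895308-7895439): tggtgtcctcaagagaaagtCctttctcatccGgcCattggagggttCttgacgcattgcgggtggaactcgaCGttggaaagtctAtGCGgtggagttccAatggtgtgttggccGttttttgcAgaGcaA
UGT85A5 (chr1:7898356-7898487): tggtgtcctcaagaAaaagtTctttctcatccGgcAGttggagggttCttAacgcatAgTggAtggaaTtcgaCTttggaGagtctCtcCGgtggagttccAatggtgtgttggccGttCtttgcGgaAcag
UGT85A3 (chr1:7900774-7900905): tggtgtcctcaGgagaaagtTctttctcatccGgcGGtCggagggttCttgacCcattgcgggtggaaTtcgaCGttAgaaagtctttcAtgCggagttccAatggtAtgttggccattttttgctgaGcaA
UGT85A1 (chr1:7904103-7904234): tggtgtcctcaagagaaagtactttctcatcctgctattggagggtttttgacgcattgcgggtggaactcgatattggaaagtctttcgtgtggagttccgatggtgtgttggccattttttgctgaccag
Over these 132 bases the copies were 83.3% (UGT85A5), 84.1% (UGT85A7), 86.4% (UGT85A3) and 88.6% (UGT85A2) identical to UGT85A1. Even in this conserved stretch the copies therefore differ from UGT85A1 at 15 to 22 positions, spread along the box. The other copies were not compared with each other over the box. Of the exonic 50-base words of each of the 5 genes, 0.0% also occur elsewhere in the genome.

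Of the 136 members, 84 passed the filter on low counts and were tested, 31 had some counts but did not pass, and 21 had no count in any library. Those 21 cannot all be read as silent genes. Of all members, 11 share at least 95% of their exonic bases with an exon of another annotated gene, and 10 of these had no count. Among the 95 members with no shared exonic base, 10 had no count. The same split held for all protein-coding genes, of which 468 of 487 with at least 95% shared bases (96.1%) and 3584 of 19924 with none (18.0%) had no count. How reads lying in 2 genes were treated is not given in the sources used here.

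**Figure D1:**
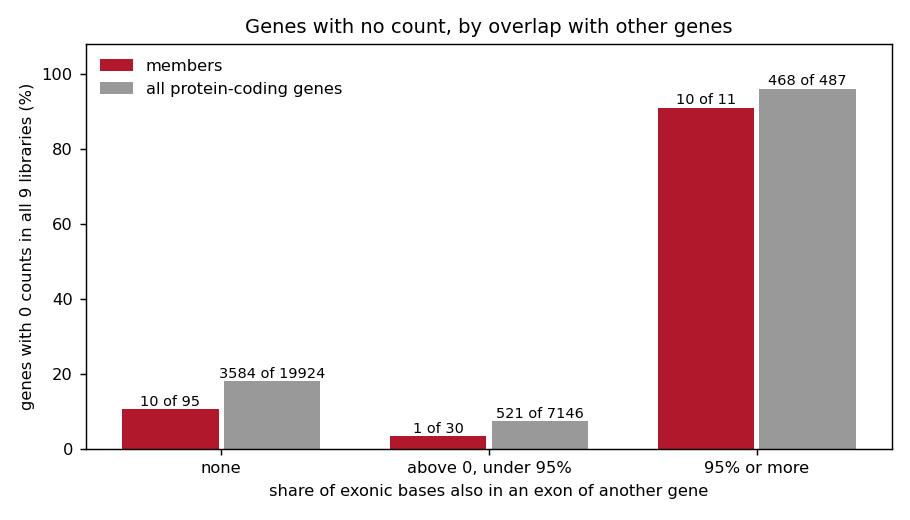
Share of genes with 0 counts in all 9 libraries (percent, y axis) by the share of their exonic bases that lies in an exon of another gene (x axis), for the members (red) and all protein-coding genes (grey); the labels give the genes at 0 of the genes in each class. Members with at least 95% shared bases were at 0 in 10 of 11 cases, against 10 of 95 with no shared base.

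The members affected include enzymes of known function. UGT75B1 and UGT74D1, which glucosylate auxins, UGT89C1, a flavonol 7-O-rhamnosyltransferase, UGT73C6, a flavonol 7-O-glucosyltransferase, and UGT71B6, an abscisic acid glucosyltransferase, each had at least 98.8% of their exonic bases shared with a long non-coding RNA on the other strand and were all listed at 0, as were UGT71B2, UGT85A4 and UGT76E11. For AT4G34139 and AT5G59070 the overlapping gene codes for protein on the other strand and held 8600 and 5832 counts over the 9 libraries. UGT76E1 shares 89.8% of its exonic bases with BOA and had no count, whereas BOA held 2190. The expression of these UGTs in the sepal cannot be told from this table. Smaller shared parts touched tested members such as UGT72C1 (49.2%), UGT73B1 (34.1%), UGT75C1 (27.1%) and UGT74F1 (25.8%), whose counts may miss reads or, since no strand use is stated, hold antisense ones.

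Counts of the family were concentrated in a few genes. The 116 named UGTs summed to 3168, 3468 and 3177 CPM in gir1-1, to 2669, 3396 and 4046 CPM in atml1-3 and to 3151, 3522 and 2540 CPM in WT, so the genotypes overlapped. The most abundant UGT held 12.1% of this sum, the top 5 held 43.4%, the top 10 held 67.0% and the top 20 held 86.9%. Only 11 members averaged at least 100 CPM, 48 at least 10 CPM and 78 at least 1 CPM. The median level of the tested members, 15.4 CPM in gir1-1, 15.6 CPM in atml1-3 and 15.5 CPM in WT, was close to that of all genes tested (16.1, 16.1 and 16.2 CPM).

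**Figure D2:**
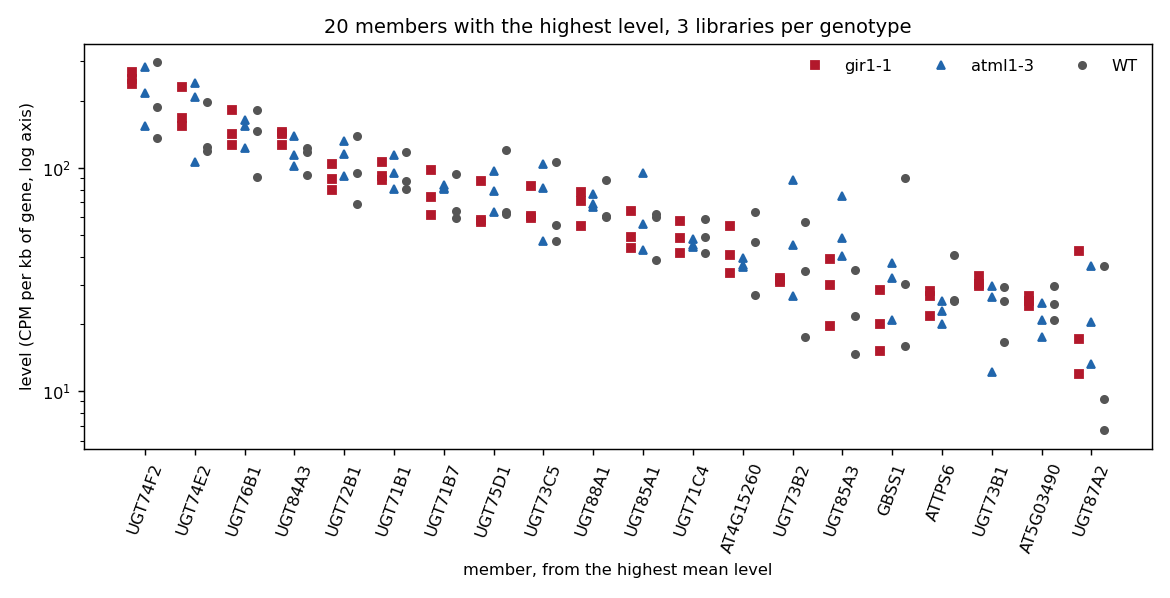
Level of the 20 members with the highest mean level (CPM per kb of gene, log y axis), with 1 point per library for gir1-1 (red squares), atml1-3 (blue triangles) and WT (grey circles). UGT74F2 stands highest with a mean of 225 CPM per kb, and the libraries of the 3 genotypes overlap for most members shown.

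Per kb of gene the order was led by enzymes acting on salicylate and auxin. UGT74F2, which forms the glucose ester of salicylic acid, had 435, 413 and 468 CPM in gir1-1, 268, 376 and 494 CPM in atml1-3 and 517, 326 and 236 CPM in WT, with a mean of 225 CPM per kb over the 9 libraries. UGT74E2, which glucosylates the auxin indole-3-butyric acid, had 293, 403 and 271 CPM in gir1-1, 186, 364 and 420 CPM in atml1-3 and 209, 345 and 217 CPM in WT, or 171.5 CPM per kb. The 3 genotypes overlapped for both genes, and the SD of the WT libraries exceeded the difference between each mutant's mean and the WT mean. UGT76B1, which glucosylates isoleucic acid, salicylic acid and N-hydroxypipecolic acid, had 314, 246.5 and 219 CPM in gir1-1, 212.5, 265 and 283 CPM in atml1-3 and 252, 314 and 157 CPM in WT.

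UGT84A3, which forms glucose esters of hydroxycinnamates, was the one member of this upper rank without overlap between a mutant and WT: it had 298, 291.5 and 261 CPM in gir1-1, 208.5, 235 and 285 CPM in atml1-3 and 242, 252.5 and 190 CPM in WT. Its gir1-1 libraries were all above the WT ones, by 0.31 ± 0.17 on the log2 scale (SE), and its adjusted p was 0.73 (edgeR's quasi-likelihood test, Benjamini-Hochberg adjusted over 19174 genes, as for every adjusted p below unless another source is named). UGT72B1, which glucosylates xenobiotics and monolignols, followed at 101.8 CPM per kb, then UGT71B1 at 95.6, UGT71B7, one of the abscisic acid glucosyltransferases related to UGT71B6, at 77.4, UGT75D1, an auxin glucosyltransferase, at 76.3, UGT73C5, which glucosylates brassinosteroids and the toxin deoxynivalenol, at 71.6 and UGT88A1 at 69.5 CPM per kb. For these 6 the log2 fold changes lay between -0.27 and 0.31 in the 3 comparisons, with no lower adjusted p than 0.77. Neighbours in the order from UGT71B7 to UGT88A1 differed by less than the spread of each over its libraries.

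No member passed an adjusted p of 0.05 in any of the 3 comparisons. In gir1-1 against WT this was 0 of 84 members tested beside 3 of 19174 genes (0.0156%), in atml1-3 against WT 0 of 84 beside 0 genes (0.0%), and in atml1-3 against gir1-1 0 of 84 beside 16 genes (0.0834%). At an unadjusted p under 0.05 (edgeR), 4 members were found in gir1-1 against WT (4.76% of the members, with 7.52% of all genes), 6 in atml1-3 against WT (7.14%, with 11.7% of all genes) and 8 in atml1-3 against gir1-1 (9.52%, with 7.35% of all genes). These shares are near those of all genes and are not a result about the members. DESeq2 called 0 of 97, 0 of 77 and 0 of 99 members in the same order of comparisons, where it called 0.696%, 0.913% and 0.681% of all genes. In bulk sepals, fewer cells of a type and less RNA per cell cannot be told apart.

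The median difference was also near that of all genes, while its spread among members was wider in atml1-3 against WT. The median log2 fold change of the members was 0.03 in gir1-1 against WT (0.005 over all genes), 0.06 in atml1-3 against WT (-0.010 over all genes) and 0.005 in atml1-3 against gir1-1 (-0.004 over all genes). A log2 fold change within 1 of zero was found for 94.0%, 86.9% and 92.9% of the members, against 94.2%, 93.5% and 93.3% of all genes. Within 0.5 of zero were 73.8%, 60.7% and 78.6% of the members, against 80.0%, 77.1% and 79.6% of all genes. The cause of the wider spread in atml1-3 against WT was not tested. Libraries of the 2 genotypes did not overlap for 6 members in gir1-1 against WT (7.14%, with 10.5% of all genes), for 11 in atml1-3 against WT (13.1%, with 18.5%) and for 9 in atml1-3 against gir1-1 (10.7%, with 15.0%). In gir1-1 against WT all 6 were above WT (5.17% of all genes were) and 0 below (5.29% of all genes), in atml1-3 against WT 8 were above (9.85% of all genes) and 3 below (8.64%), and in atml1-3 against gir1-1 4 were above (8.0%) and 5 below (7.0%). The median coefficient of variation among the 3 libraries was 22.9% for members in gir1-1 (19.7% for all genes), 23.0% in atml1-3 (16.3%) and 38.1% in WT (21.7%), so the members' counts spread more than those of other genes, most in WT.

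**Figure D3:**
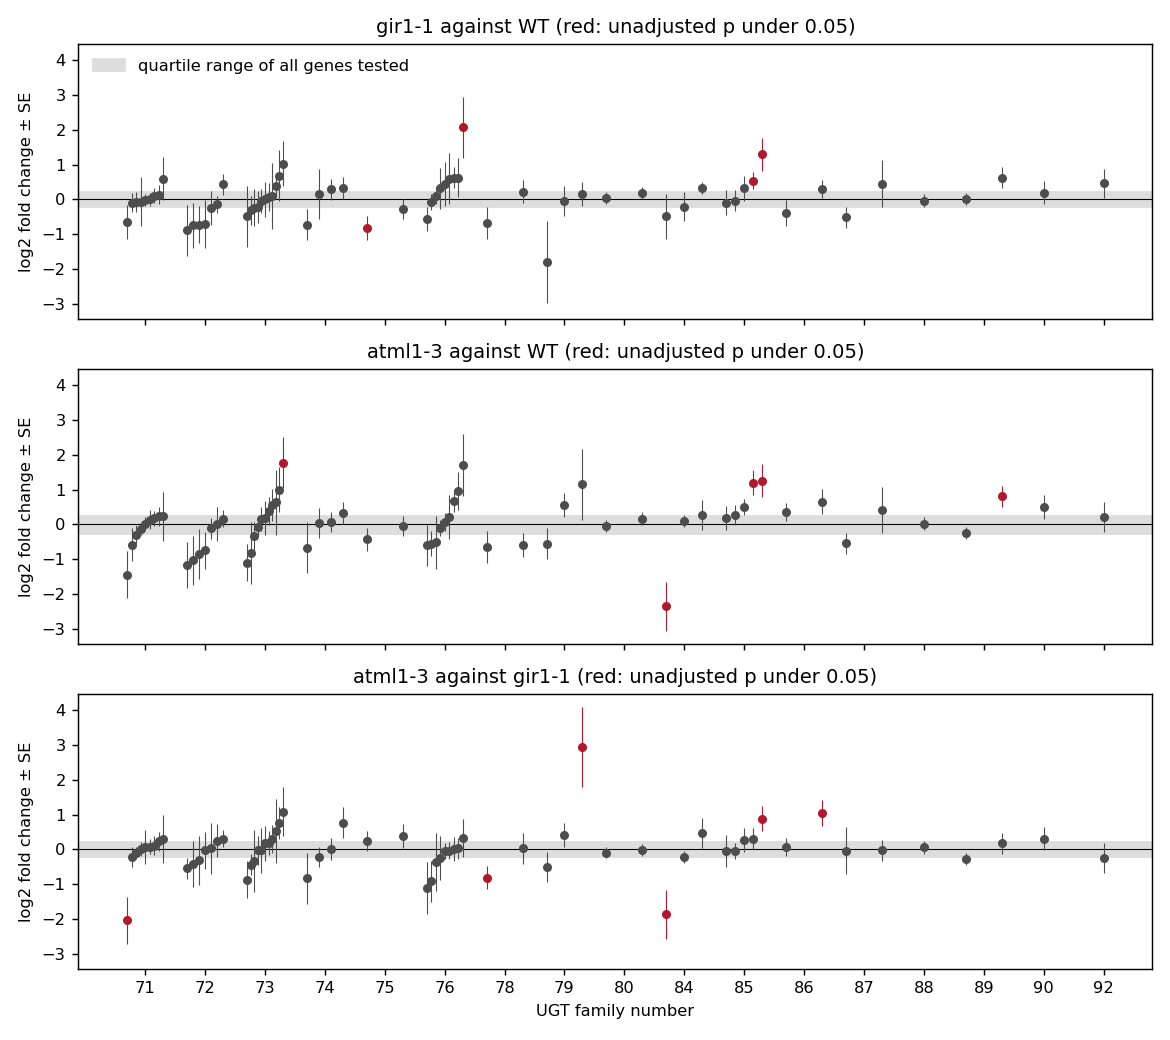
Log2 fold change with its standard error for each of the 66 named UGTs tested (y axis), by UGT family number (x axis) and sorted within a family, for the 3 comparisons; red marks an unadjusted p under 0.05 and the grey band is the quartile range of all genes tested. Points lie on both sides of zero in most families, and all 5 of family 85 lie above zero in atml1-3 against WT.

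By family, the sums of 2 of 20 families, 85 and 86, stood above WT in every atml1-3 library. Of single genes, 9.85% stood above WT without overlap in this comparison. The summed counts of family 85 were 246, 223 and 373 CPM in atml1-3, against 185, 192 and 201 CPM in WT. Family 86 summed to 39.2, 40.8 and 62.9 CPM in atml1-3, against 20.9, 37.6 and 37.0 CPM in WT and 28.4, 29.4 and 27.1 CPM in gir1-1, so its lowest atml1-3 and highest WT library were nearly level. In gir1-1, families 74 and 84 stood above WT in every library, in a comparison where 5.17% of single genes did. Family 74 had 731.5, 820 and 745 CPM in gir1-1, against 729, 680 and 455.5 CPM in WT. Its lowest gir1-1 and highest WT library were thus nearly level. Family 84 had 304, 295 and 267 CPM in gir1-1, against 248, 262 and 193 CPM in WT. UGT84A3 made up nearly all of the family 84 sum. In the other numbered families the libraries of each mutant overlapped those of WT.

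**Figure D4:**
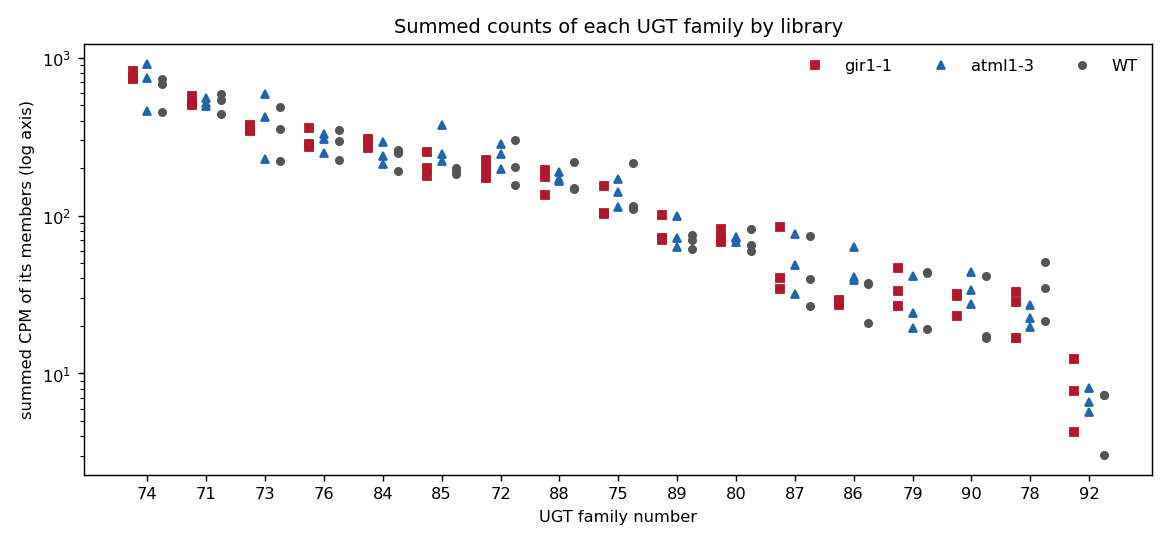
Summed CPM of the members of each UGT family (log y axis) by family number (x axis), 1 point per library for gir1-1 (red squares), atml1-3 (blue triangles) and WT (grey circles), for the families with at least 0.1% of all UGT counts. Family 74 has the highest sums, with means of 765 CPM in gir1-1, 707 CPM in atml1-3 and 621.5 CPM in WT.

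The UGT85A array covers chr1:7890259-7906969 (TAIR10.1) with 5 genes, all tested. Its member with the lowest unadjusted p in atml1-3 against WT (edgeR) was UGT85A3. This gene had 69.5, 83.7 and 129 CPM in atml1-3, against 25.4, 37.4 and 60.6 CPM in WT. The 3 atml1-3 libraries lay above all WT libraries, and above the 3 gir1-1 libraries with 34.0, 51.5 and 67.9 CPM. The log2 fold change was 1.20 ± 0.36 (SE) in atml1-3 against WT, with an unadjusted p of 0.00774 and an adjusted p of 0.37 by edgeR, and 0.88 ± 0.36 in atml1-3 against gir1-1 with an adjusted p of 0.66. In the authors' deposited table UGT85A3 was the only member with an adjusted p under 0.05, at 0.0407 and a log2 fold change of 1.19 for atml1-3 against WT, where 1 of 110 members with a value and 1.24% of all genes passed. In the other comparisons of the authors' deposited table, 0 of 106 members (gir1-1 against WT, with 0.455% of all genes) and 0 of 110 members (gir1-1 against atml1-3, with 1.32%) passed. Neither edgeR nor DESeq2 called UGT85A3.

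UGT85A7, the first gene of the array in genome order, was low. It had 1.87, 1.22 and 2.31 CPM in gir1-1, 1.26, 2.02 and 1.97 CPM in atml1-3 and 0.458, 1.09 and 0.646 CPM in WT. All 6 mutant libraries lay above the 3 WT libraries. The log2 fold changes were 1.29 ± 0.48 in gir1-1 against WT and 1.25 ± 0.48 in atml1-3 against WT (SE), with adjusted p of 0.60 and 0.39 by edgeR; both comparisons use the same WT libraries. UGT85A5 had 27.9, 37.6 and 29.4 CPM in gir1-1, 34.7, 31.4 and 26.4 CPM in atml1-3 and 21.9, 14.9 and 28.5 CPM in WT, with 1 WT library inside the range of each mutant. UGT85A2 had 26.4, 19.1 and 23.3 CPM in atml1-3, against 14.8, 12.3 and 33.5 CPM in WT, and UGT85A1, which O-glucosylates the cytokinin trans-zeatin, had 114, 86.8 and 192 CPM in atml1-3, against 122, 126 and 78.0 CPM in WT. Both overlapped between genotypes. The 5 log2 fold changes ran from 0.18 to 1.25 in atml1-3 against WT, and from -0.09 to 1.29 in gir1-1 against WT with 3 above and 2 below zero.

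**Figure D5:**
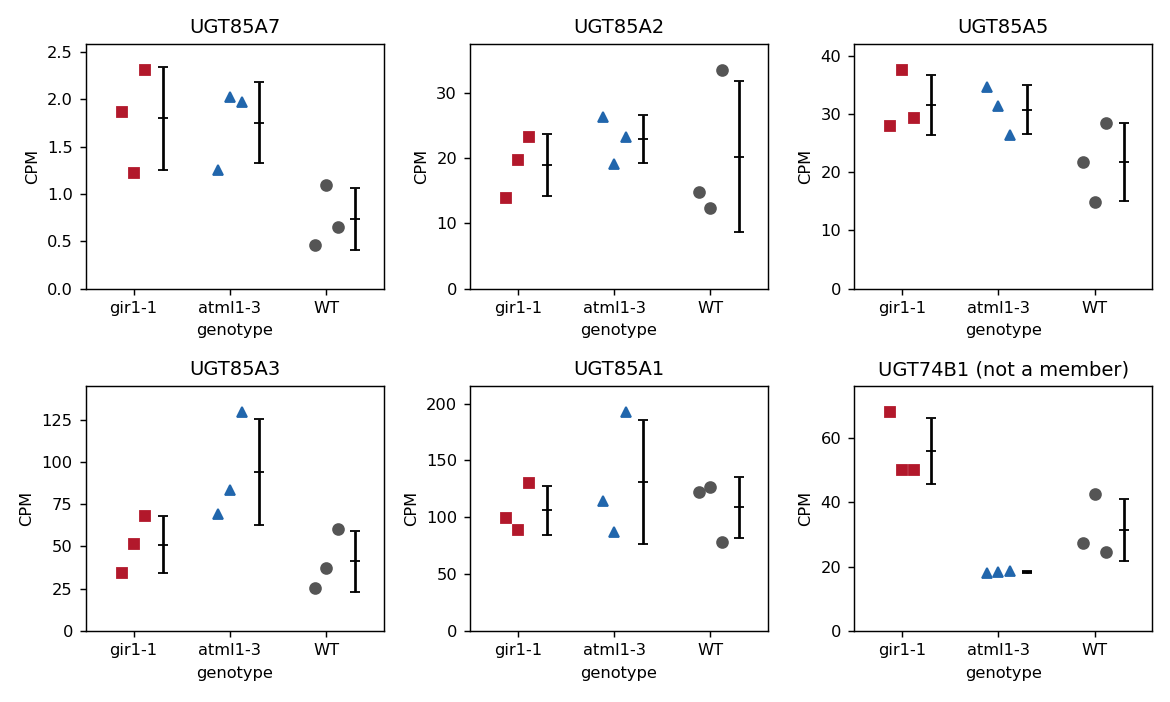
CPM (y axis, from 0) in each library of gir1-1, atml1-3 and WT (x axis) for the 5 genes of the UGT85A array and, for contrast, UGT74B1; black bars give the mean ± SD of 3 libraries. UGT85A3 is at 69.5 to 129 CPM in atml1-3 and 25.4 to 60.6 CPM in WT, while UGT74B1 is near 18 CPM in all 3 atml1-3 libraries.

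The other arrays held no member with an adjusted p under 0.05. The table holds 23 arrays with 72 members, counting neighbours of 1 family with at most 1 gene between them. In the 6-gene UGT73C array, log2 fold changes of the 5 genes tested ran from -0.32 to 0.10 in gir1-1 against WT and from -0.35 to 0.63 in atml1-3 against WT. The 7-gene array around UGT76E3 had 3 genes tested, all low, with values of 0.45 to 2.07 in gir1-1 against WT and 0.20 to 1.71 in atml1-3 against WT. UGT76E3 itself was at 2.21, 1.95 and 9.38 CPM in gir1-1, 2.39, 4.53 and 3.64 CPM in atml1-3 and 0.0572, 2.00 and 1.18 CPM in WT, so 1 gir1-1 library was far above and 1 WT library far below the others. In the UGT79B2 and UGT79B3 pair, 19.5% and 21.3% of the 50-base words also occur elsewhere in the genome, and how reads with 2 places were counted is not given.

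Outside the array, UGT89B1 stood above WT in both mutants. It had 25.4, 51.5 and 25.5 CPM in gir1-1, 30.3, 33.2 and 52.3 CPM in atml1-3 and 19.7, 24.0 and 22.5 CPM in WT. In each mutant 1 library was far above the other 2, and the log2 fold changes were 0.63 ± 0.30 and 0.81 ± 0.30 (SE) with adjusted p of 0.69 and 0.39 by edgeR. UGT76E7 did likewise at a low level, with 2.71, 2.93 and 2.55 CPM in gir1-1, 2.96, 2.65 and 2.80 CPM in atml1-3 and 1.60, 2.19 and 1.53 CPM in WT; with UGT85A7 these were 3 of 84 members (3.57%) above WT without overlap in both mutants, beside 2.22% of all genes, and both comparisons share the WT libraries. UGT86A1 had 27.7, 30.03 and 52.6 CPM in atml1-3, against 14.9, 23.1 and 15.6 CPM in gir1-1 and 11.7, 29.6 and 28.8 CPM in WT. Its libraries of atml1-3 and gir1-1 did not overlap, with a log2 fold change of 1.04 ± 0.37 (SE) and an adjusted p of 0.65 by edgeR. UGT73B1 had 63.2, 61.5 and 68.1 CPM in gir1-1, against 52.6, 60.9 and 34.7 CPM in WT, without overlap but with 34.1% of its exonic bases shared with another gene. UGT86A2, AT1G78800 and LEW3, a mannosyltransferase of N-glycan assembly, were above WT in all 3 atml1-3 libraries by small log2 fold changes of 0.36, 0.25 and 0.25.

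Members lower in atml1-3 than in WT, gir1-1 or both included other glycosyltransferases and a flavonol enzyme, none with an adjusted p under 0.05. AT5G04480, annotated in the superfamily but without a PSPG box, had 55.1, 54.6 and 59.7 CPM in atml1-3, against 110, 100.3 and 66.2 CPM in WT and 132, 59.3 and 110 CPM in gir1-1. The 3 atml1-3 libraries were below every WT library, and close to 1 gir1-1 library; compared with WT they gave -0.71 ± 0.28 on the log2 scale (SE), adjusted p = 0.39 by edgeR. AT1G73740 had 17.04, 21.2 and 22.4 CPM in atml1-3, against 24.9, 24.9 and 34.1 CPM in gir1-1 and 31.0, 24.2 and 22.7 CPM in WT (against gir1-1 -0.47 ± 0.20, SE, adjusted p = 0.66 by edgeR). UGT78D1, a flavonol 3-O-rhamnosyltransferase, had 4.28, 4.15 and 4.36 CPM in atml1-3, against 9.11, 5.43 and 7.81 CPM in gir1-1 (-0.81 ± 0.33, SE, adjusted p = 0.66 by edgeR). The WT libraries, with 3.55, 7.59 and 8.11 CPM, lay on both sides of the atml1-3 ones.

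UGT71D2, with 0.0629, 0.386 and 0.597 CPM in atml1-3, against 1.24, 1.28 and 1.87 CPM in gir1-1, and UGT84A1 were near the floor and are given as descriptions. UGT84A1 is a hydroxycinnamate glucosyltransferase next to UGT84A3 in the genome. It had 0.314, 0.0964 and 0.418 CPM in atml1-3, against 1.60, 1.94 and 0.705 CPM in WT and 1.30, 0.427 and 1.28 CPM in gir1-1. In the comparison with WT this gave -2.36 ± 0.71 on the log2 scale (SE), adjusted p = 0.37 by edgeR. UGT84A2, which forms sinapoyl glucose, had 4.53, 4.05 and 7.52 CPM in atml1-3, against 3.95, 7.04 and 2.29 CPM in WT, with overlap.

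Members with a known substrate were also read by group. In the flavonoid group, 4 of 8 were tested: UGT78D1, UGT78D2, which is the flavonoid 3-O-glucosyltransferase, UGT75C1, the anthocyanin 5-O-glucosyltransferase, and UF3GT, which adds xylose to anthocyanin glucosides. In gir1-1 against WT 1 of the 4 had a positive fold change, and UGT75C1, with 2.43, 2.74 and 1.92 CPM in gir1-1, against 4.18, 5.77 and 2.64 CPM in WT, had an unadjusted p of 0.0362 and an adjusted p of 0.64 by edgeR. UF3GT had 1.76, 0.675 and 1.73 CPM in atml1-3, against 0.113, 0.427 and 0 CPM in gir1-1 and 0.229, 1.52 and 0.117 CPM in WT. Of 11 genes for flavonoid synthesis and its regulators, 7 were tested. In atml1-3 against gir1-1 3 had a positive and 4 a negative fold change. By edgeR, 2 and 1 of them had an unadjusted p under 0.05, beside 7.35% of all genes, and 0 had an adjusted p under 0.05. The 2 positive ones were DFR, at 2.86 to 6.04 CPM in atml1-3, 0.638 to 1.95 CPM in gir1-1 and 1.14 to 3.64 CPM in WT, and LDOX, at 0.964 to 1.37 CPM in atml1-3, 0.0982 to 0.183 CPM in gir1-1 and 0 to 1.22 CPM in WT. The negative one was TT4, the chalcone synthase, at 15.2 to 45.5 CPM in atml1-3, 25.6 to 128 CPM in gir1-1 and 29.9 to 55.6 CPM in WT. For all 3 genes the WT libraries overlapped those of at least 1 mutant.

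The cytokinin group (UGT76C1 and UGT76C2, N-glucosyltransferases, and UGT85A1) had 3 of 3 tested, the salicylate group (UGT74F1, UGT74F2 and UGT76B1) had 3 of 4 tested and the sterol glucosyltransferases UGT80A2 and UGT80B1 were both tested; none of these 8 had an unadjusted p under 0.05 in any comparison. The sterol enzymes had summed counts of 68.4 to 82.3 CPM in gir1-1, 68.3 to 73.5 CPM in atml1-3 and 60.1 to 82.2 CPM in WT. Of the 2 listed abscisic acid glucosyltransferases UGT71B6 was listed at 0, and UGT71C5 was at 18.0 to 28.9 CPM in gir1-1, 18.6 to 30.8 CPM in atml1-3 and 15.1 to 26.0 CPM in WT. UGT72E3, a monolignol glucosyltransferase, averaged under 1 CPM in every genotype.

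The enzymes that make the sugar donors were all counted. Of 29 genes for sucrose synthases, UDP-glucose pyrophosphorylases and UDP-sugar dehydrogenases, epimerases, synthases and related enzymes, all were tested and none passed an adjusted p of 0.05 in any comparison (edgeR). In gir1-1 against WT 10 had a positive and 19 a negative fold change. At an unadjusted p under 0.05 (edgeR), 1 of the 29 was found, beside 7.52% of all genes. In atml1-3 against WT the split was 14 to 15, with 6 of the 29 at that p, beside 11.7% of all genes. In atml1-3 against gir1-1 it was 16 to 13, with 2 of the 29, beside 7.35% of all genes. The list was not tested as a set. UGP2, a UDP-glucose pyrophosphorylase, was at 31.4 to 42.5 CPM in gir1-1 and 34.0 to 43.6 CPM in atml1-3, against 40.5 to 89.2 CPM in WT. SUS3, a sucrose synthase, was at 164 to 189 CPM in atml1-3, against 41.0 to 106.5 CPM in WT, with no overlap (log2 fold change 1.38 ± 0.53, SE, adjusted p = 0.39 by edgeR).

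The promoters were searched for the L1 box, the letters TAAATGCA or TAAATGTA on either strand, which is the motif known for homeodomain factors of ATML1's class. From 250 bases before to 50 bases after the gene start, 11 of 136 members (8.1%) and 1404 of 27556 protein-coding genes (5.1%) held a match. A match is a description and not a binding site. The members with a match were UGT88A1, UGT92A1, UGT71B5, UGT84A4, UGT84B2, UGT72E1, AT5G04480, AT4G15260, AT1G73740, AT5G38010 and AT1G51210; none of the 5 UGT85A genes, and neither UGT86A1 nor UGT89B1, held one in this window. The 250 bases before the start are shown for UGT88A1, the one member with 2 matches, and for AT5G04480, the tested member with a match whose atml1-3 libraries lay lowest against WT. Both are from RefSeq TAIR10.1, minus strand, 5′ to 3′, with the motif in capitals.
UGT88A1 (chr3:5620970-5621219): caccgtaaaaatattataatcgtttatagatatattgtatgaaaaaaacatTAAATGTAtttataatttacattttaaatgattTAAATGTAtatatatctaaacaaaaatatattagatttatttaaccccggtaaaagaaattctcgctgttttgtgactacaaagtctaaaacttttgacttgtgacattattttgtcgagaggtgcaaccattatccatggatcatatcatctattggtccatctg
AT5G04480 (chr5:1278103-1278352): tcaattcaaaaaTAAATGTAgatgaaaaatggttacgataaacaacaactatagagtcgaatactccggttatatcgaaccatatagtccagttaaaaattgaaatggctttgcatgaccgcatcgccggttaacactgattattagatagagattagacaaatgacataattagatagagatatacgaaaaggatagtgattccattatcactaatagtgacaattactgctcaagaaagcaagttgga
UGT88A1 had 188, 166 and 171 CPM in atml1-3, against 148, 150 and 219 CPM in WT, with overlap.

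Of the 2 genes left out, UGT74B1 passed the threshold in 1 comparison and UGT74C1 in none. UGT74B1, the S-glucosyltransferase of glucosinolate synthesis, had 18.1, 18.4 and 18.5 CPM in atml1-3, against 68.0, 49.9 and 50.0 CPM in gir1-1 and 27.4, 42.5 and 24.6 CPM in WT. Its log2 fold change in atml1-3 against gir1-1 was -1.61 ± 0.22 (SE) with an adjusted p of 0.0423 by edgeR, 7.73e-08 by DESeq2 and 1.31e-12 in the authors' deposited table. With any 1 of these 6 libraries left out, its adjusted p was 0.0728 to 0.302 by edgeR. UGT74C1 had 23.8, 22.1 and 24.9 CPM in atml1-3, against 53.9, 35.9 and 23.1 CPM in gir1-1 and 34.1, 52.1 and 29.1 CPM in WT, and its adjusted p was 0.68 in the same comparison. Among the 84 members tested the lowest adjusted p by edgeR was 0.60 in gir1-1 against WT (UGT85A7). It was 0.37 in atml1-3 against WT (UGT85A3, level with UGT84A1) and 0.63 in atml1-3 against gir1-1 (UGT71D2), both by edgeR.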

How the data were processed

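Per the labels, RNA from the sepals of 9 samples was made into libraries and sequenced; TAIR10 is the genome build named, per the submitters' processing notes, while the aligner, the counting tool and its use of strand are not given in the sources used here. The authors deposited 1 table with raw read counts per gene, which all fits here use, and with FPKM values, mean normalized values per comparison, log2 fold changes and p-values of the authors' own comparisons; of these the fold changes and adjusted p-values were read, and the FPKM and normalized mean values were not used. No column of another series was present.

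Counts were fitted with edgeR 4.0.16 (R 4.3.3) in 1 model of genotype over all 9 libraries, with TMM scaling (factors 0.933 to 1.045), the default filter on low counts (19174 genes kept), the quasi-likelihood test and Benjamini-Hochberg adjustment over all genes tested. CPM values use TMM-scaled library sizes. The common biological coefficient of variation was 0.30, which together with 3 libraries per genotype limits precision. The fit was tested on simulated data. DESeq2 1.42.0, other scalings and filters, a fit of the genotypes compared only, a replicate term and leaving out each library were the alternatives.

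Exon overlap, 50-base words found elsewhere, arrays, promoters and the PSPG box came from RefSeq TAIR10.1; 38286 of 38299 genes were matched by gene ID and all had equal start and end. The members and gene lists were chosen with earlier results of these data known. Genes named in the text are members called by edgeR or in the authors' deposited table, the members with the largest differences among those with an unadjusted p under 0.05, no overlap and a mean of at least 1 CPM, the 10 highest per kb, members of the role lists and both genes left out. Other members named were chosen after their values were seen. They are UGT71D2, UGT73B1, UGT76E3, UGT76E7, UGT79B2, UGT79B3, UGT84A1, UGT85A2, UGT85A5, UGT86A2, AT1G78800, LEW3, the overlapped genes and the motif holders. The donor genes and flavonoid synthesis genes shown were chosen likewise.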

Additional observations from a re-analysis of the deposited data

How the results depend on the processing

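The count of members with an adjusted p under 0.05 was 0 in all 39 alternatives over the 3 comparisons. The median log2 fold change stayed within the spread between libraries in all 39. The alternative with members named UGT only is the main fit cut to those members, so its count of 0 followed from the main result. The count at an unadjusted p under 0.05 moved more. The shares of all genes under the same alternatives were not set beside these counts. The counts are therefore not a result about the members. In gir1-1 against WT it was 4 of 84 members tested, and 7 of 115 with no filter. It was 1 of 83 with only the genotypes compared and 2 of 36 for members named UGT in the table only. With each library left out it was 1 to 6, lowest without the third gir1-1 library. In atml1-3 against WT it was 6, and 4 to 14 with each library left out, highest without the third WT library (14) and the second (11). In atml1-3 against gir1-1 it was 8, and 3 for members named UGT only and 2 to 10 with each library left out, lowest without the first gir1-1 library (2) and at 4 without the third gir1-1 or the third atml1-3 library and 5 without the second atml1-3 library.

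Same-numbered libraries did not deviate together over all genes (correlations of -0.174 to 0.121), which cannot exclude a pairing for single genes. With the replicate block the counts at an unadjusted p under 0.05 (edgeR) were 4, 11 and 7, again without the shares of all genes. At an adjusted p under 0.05 there were 0 members. UGT74B1 in atml1-3 against gir1-1 was then at -1.61 with an adjusted p of 0.0709 by edgeR. UGT85A3 rose with the library number in every genotype. In atml1-3 against WT it was at 1.24 ± 0.147 (SE) with the block, adjusted p = 0.23 by edgeR, and at 1.20 ± 0.36 without it. Of the log2 fold changes of named genes, 169 kept direction and side of the threshold, 4 changed sign and 7 lost the threshold. Those 7 belong to UGT74B1 in atml1-3 against gir1-1, which had an adjusted p under 0.05 in 5 of 12 alternatives. The 4 that changed sign all belong to UGT74C1 in gir1-1 against WT, at -0.03, which was 0.013 with total counts and -0.375 to 0.252 with each library left out. UGT74B1 in atml1-3 against gir1-1 ran from -1.69 to -1.46 with each library left out. UGT85A3 in atml1-3 against WT ran from 0.90 to 1.59 over the alternatives, with adjusted p of 0.077 to 0.66. The causes were not tested. Ranking levels per kb of exon shared with no other gene, an alternative chosen after seeing the data, kept all 10 of the 10 highest members. Depth limits members near 0.189 CPM, and exon overlap limits those at 0.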
